A study of Mus musculus with 6 samples.

Results

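The genes of the Wnt pathway described here are its secreted ligands, the Frizzled receptors and their co-receptors, the secreted antagonists, the R-spondin branch, and the nuclear effectors with the feedback gene Axin2. They were chosen by symbol from the 55357 genes listed: every Wnt, Fzd, Sfrp1 to Sfrp5 and Dkk1 to Dkk4 gene, together with Axin2, Lef1, Tcf7, Tcf7l1, Tcf7l2, Lrp5, Lrp6, Ctnnb1, Rspo1, Rspo2, Rspo3, Lgr4, Lgr5, Wif1, Ror1 and Ror2. The choice found 53 genes, of which 33 had a mean normalized count of at least 10 over all cultures and were tested. Their mRNA was measured by RNA-seq in primary cortical astrocytes from C57BL/6 mouse embryos of embryonic day 18. The BRAF KE–transfected group (KE) was 3 cultures harvested 48 hours after transfection with BRAF K499E, a gain-of-function form of the kinase found in RASopathies. For the astrocytes it stained, the paper describes a plasmid with FLAG-tagged BRAF K499E under the CMV promoter, given together with a GFP plasmid. The nontransfected group (NT) was 3 cultures of the same kind that received no plasmid. The astrocyte medium described for these cultures held HB-EGF, a ligand of the EGF receptor. No culture with an empty plasmid or with wild-type BRAF was among the samples, so an effect of the plasmid or of transfection and an effect of BRAF KE cannot be told apart. The sources do not say whether the replicates came from separate embryos or preparations, and p-values therefore measure only the spread between these 6 cultures.

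Wnt proteins are lipid-modified secreted ligands that bind Frizzled receptors on the cell surface. In the canonical branch, a ligand joins a Frizzled with the co-receptor LRP5 or LRP6, a cytoplasmic destruction complex is held back, and β-catenin accumulates and drives genes through TCF/LEF factors. Axin2 is both a target of that branch and one of its brakes. Other branches signal through ROR receptors and planar cell polarity proteins without β-catenin. In the developing cortex, Wnt signals shape progenitor growth and the formation of glia and brain vessels, and astrocytes are known to express Wnt7a.

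The transfected gene, Braf, had normalized counts of 34933 to 40978 in KE and 811 to 946 in NT, with a log2FC of 5.37. Approximate depth lay between 24500000 and 34100000 reads, and KE replicate 2 was the shallowest. Astrocyte markers were high in both groups, with Gfap at 30696 to 32167 in KE and 16536 to 17745 in NT, although S100b stayed at 11.8 to 31.5. The summed normalized counts of 10 astrocyte markers were 194520 to 200350 in KE and 142100 to 150690 in NT, and 7 of them rose while Gja1 fell. All 12 microglia and macrophage markers fell, with a summed level of 4813 to 6725 in KE and 39921 to 45641 in NT. Of the oligodendrocyte lineage markers 7 of 8 tested fell, with a summed level of 27118 to 31887 in KE and 35982 to 36234 in NT. Of 8 fibroblast markers 3 rose and 2 fell, and their summed level of 2345 to 2475 in KE lay within the NT range of 2289 to 2832. Of 7 endothelial markers 3 were tested and 2 fell (Flt1 and Pecam1). The summed level of all 7 was 239 to 302 in KE and 338 to 497 in NT. Flt1 carried most of that sum, with 197 to 246 in KE and 273 to 428 in NT. The defining markers Cldn5 and Cdh5 were at or near 0 in KE and reached at most 2.07 and 5.94 in NT. The untested Tek leaned the other way with overlapping groups, at 8.36 to 12.1 in KE and 1.04 to 9.97 in NT. The part of these shifts in the Wnt results was not tested. In bulk RNA, fewer cells of a type and less RNA per cell cannot be told apart.

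In KE cultures the Wnt genes moved in both directions by moderate amounts. The Frizzled receptor genes Fzd1, Fzd6 and Fzd7, rose with the R-spondin gene Rspo3, while Fzd3, the co-receptor Lrp6 and the feedback gene Axin2 fell. Secreted antagonists moved both ways: Dkk3 and Sfrp4 rose, and Sfrp1, Sfrp2 and Dkk2 fell. Of the 33 tested genes, 8 rose and 8 fell at an adjusted p under 0.05 in limma's moderated test, with Benjamini-Hochberg adjustment over all genes tested. That is 48.5% of the tested Wnt genes, beside 51.3% of all 15280 genes tested, of which 25.3% rose and 26.0% fell. The share of Wnt genes called was thus close to that over all genes. Without NT replicate 3, the number that fell was 5 in place of 8, and over all genes 7006 were called in place of 7844. The values of the KE and NT cultures did not overlap for 18 of the 33, beside 59.9% of all genes tested. The median log2FC was -0.09 and the median absolute log2FC 0.35, beside 0.002 and 0.30 over all genes, and single genes ranged from -1.87 for Sfrp2 to 0.83 for Fzd6. Only Sfrp2, Dkk2 and Wnt4 differed by an absolute log2FC of at least 1. Of these, Dkk2 and Wnt4 had KE means of 4.94 and 9.78 and NT means of 15.9 and 23.1, so they passed the filter on low values only through NT, the group where they were high, and their falls are given as a description.

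**Figure D1:**
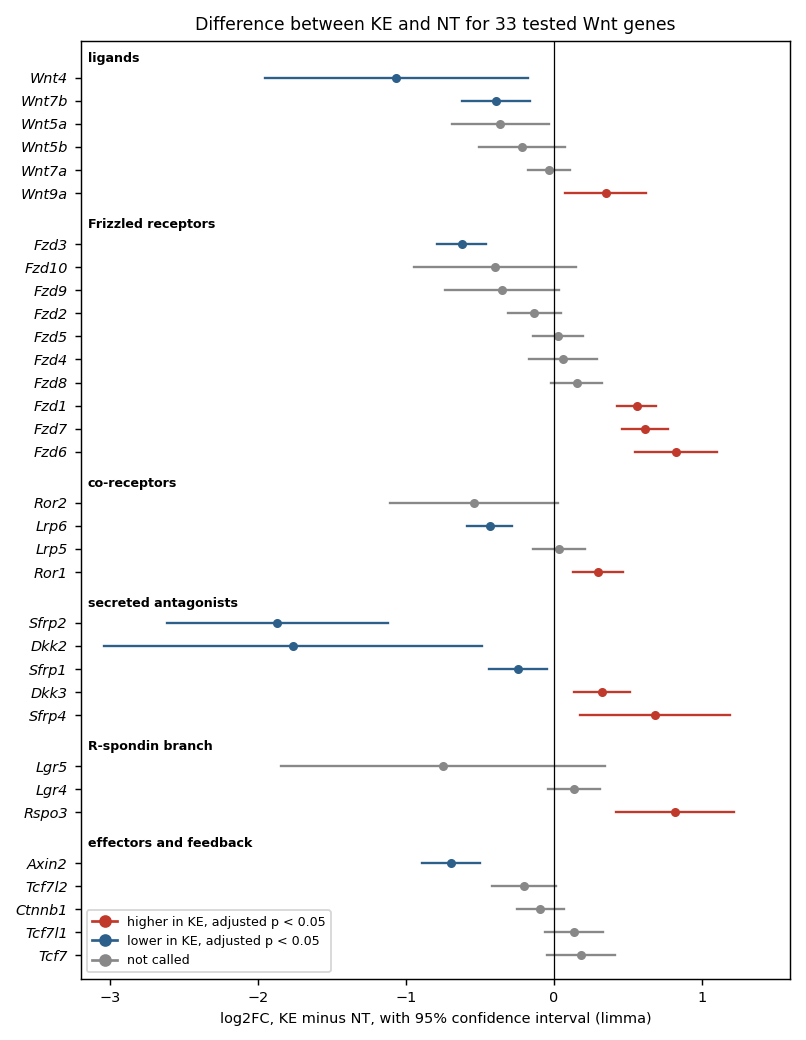
The plot gives the log2FC (KE minus NT, on the log2 of the normalized count plus 1) of the 33 tested Wnt genes, grouped by role, with 95% confidence intervals from limma that are not adjusted for multiple testing. Red points rose, blue points fell and grey points were not called. The 8 rises end at 0.83 for Fzd6 and the 8 falls at -1.87 for Sfrp2, and Wnt5a has an interval just below 0 but an adjusted p of 0.061.

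To show what lies just before the start of the genes that changed, the 250 bases upstream of the start of each gene's canonical transcript were read from GRCm39 with Gencode vM39 and searched on both strands. The letters searched were CTTTGAT or CTTTGAA or CTTTGTT or CTTTGTA for TCF/LEF, TTTCNNTTT for the core of the interferon-stimulated response element, and TGANTCA for AP-1. Of the 16 genes that changed, 4 held a match, and their windows are printed 5′ to 3′ on the strand of the gene with the match in capitals. The share of all windows holding any of these motifs was not counted, so 4 of 16 is not a result about the changed genes. The Axin2 window lies on the plus strand at chr11:108811388-108811637, the Lrp6 window on the minus strand at chr6:134544213-134544462, the Fzd7 window on the plus strand at chr1:59521019-59521268, and the Rspo3 window on the minus strand at chr10:29411877-29412126.
Axin2: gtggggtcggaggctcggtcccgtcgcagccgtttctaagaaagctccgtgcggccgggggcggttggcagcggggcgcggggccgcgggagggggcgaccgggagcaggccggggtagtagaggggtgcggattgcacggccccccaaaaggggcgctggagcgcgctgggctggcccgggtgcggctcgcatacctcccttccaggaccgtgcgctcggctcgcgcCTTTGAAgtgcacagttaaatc
Lrp6: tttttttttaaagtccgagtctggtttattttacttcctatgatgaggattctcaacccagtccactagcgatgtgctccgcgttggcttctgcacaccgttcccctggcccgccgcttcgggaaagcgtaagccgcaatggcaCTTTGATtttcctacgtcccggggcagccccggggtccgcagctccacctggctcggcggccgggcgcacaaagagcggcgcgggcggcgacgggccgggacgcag
Fzd7: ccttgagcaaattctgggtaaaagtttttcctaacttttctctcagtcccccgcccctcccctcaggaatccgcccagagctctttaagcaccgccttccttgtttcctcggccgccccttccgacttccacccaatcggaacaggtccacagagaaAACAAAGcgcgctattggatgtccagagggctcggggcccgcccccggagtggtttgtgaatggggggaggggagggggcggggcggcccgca
Rspo3: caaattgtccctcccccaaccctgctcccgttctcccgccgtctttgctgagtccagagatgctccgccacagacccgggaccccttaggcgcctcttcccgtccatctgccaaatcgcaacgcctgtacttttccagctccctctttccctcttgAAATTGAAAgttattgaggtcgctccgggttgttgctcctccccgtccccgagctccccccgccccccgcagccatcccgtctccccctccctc
The Axin2 match CTTTGAA lies 16 to 22 bases before the start, and the Lrp6 match CTTTGAT lies 100 to 106 bases before it. In Fzd7 the match AACAAAG, on the opposite strand of a TCF/LEF motif, lies 87 to 93 bases before the start. The Rspo3 match AAATTGAAA, the reverse complement of the response element core, lies 86 to 94 bases before it. TCF/LEF letters were found in 1 of the 8 genes that rose, 2 of the 8 that fell, 1 of the 17 not called and 4 of the 20 not tested, that is 8 of 53, beside 14.6% of the 21627 protein-coding windows. The response element core was found in 2 of 53 (Rspo3 and Rspo2), beside 10.1% of all windows. AP-1 letters were found in 3 of 53, none of which changed, beside 6.19% of all windows. A match is a run of letters and not a measured binding site, and windows without one say nothing of the factors.

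Of the 19 ligand genes, 6 were tested: Wnt9a rose, Wnt4 and Wnt7b fell, and Wnt5a, Wnt5b and Wnt7a were not called. That is 50% called beside 51.3% of all genes. Wnt4 was tested only because of its NT values, so the share is not a result about the ligands. Wnt7a (ENSMUSG00000030093; chr6:91340959-91388460 of GRCm39, minus strand) encodes a ligand with known roles in brain vessel growth and synapse formation, and had the highest level of any ligand. Its normalized counts were 1473, 1518 and 1583 in KE and 1608, 1484 and 1586 in NT. The cultures of both groups were interleaved. The log2FC was -0.03, with a 95% confidence interval of -0.17 to 0.11. Per kb of merged exons, Wnt7a reached a mean of 469 normalized counts over the 6 cultures, followed by Wnt9a at 84.0, Wnt5a at 60.8, Wnt5b at 58.0, Wnt7b at 55.1 and Wnt4 at 3.26. The spreads of Wnt5a, Wnt5b and Wnt7b overlap. With the length of the canonical transcript, an alternative added after the data were seen, Wnt7a remained the highest and Wnt4 the lowest, but Wnt5b came second at 130 per kb, ahead of Wnt9a at 93.7, Wnt7b at 80.8 and Wnt5a at 67.6, so the order of these 4 is not settled. Wnt7a made up 64.6% ± 1.74 of all ligand transcripts per kb in KE and 63.3% ± 2.52 in NT (mean ± SD over 3 cultures).

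Wnt9a (chr11:59197567-59224378, plus strand) had normalized counts of 356, 380 and 365 in KE and 254, 271 and 345 in NT. Every KE culture lay above every NT culture, and NT replicate 3 came closest. The log2FC was 0.35 (standard error 0.12, adjusted p = 0.0344 with limma), and the adjusted p rose to 0.0887 and 0.127 without KE replicate 2 and NT replicate 1, 0.0664 and 0.0782 without KE replicates 1 and 3, and 0.098 without NT replicate 2. Wnt7b (chr15:85419638-85466674, minus strand), the closest relative of Wnt7a, had 231, 264 and 239 in KE and 323, 328 and 311 in NT. The groups did not overlap, and the 3 NT cultures were tightly spaced. The log2FC was -0.39 (standard error 0.10, adjusted p = 0.00858 with limma).

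Wnt4 (chr4:137004373-137027037, plus strand), a ligand known from kidney and gonad development, was close to the threshold for testing. Its normalized counts were 8.14, 11.3 and 9.96 in KE and 11.9, 25.9 and 31.5 in NT. The groups were separated by less than 1 normalized count, because NT replicate 1 lay near the KE cultures. The log2FC was -1.06 (standard error 0.40, adjusted p = 0.0463 with limma). The call was lost without any KE culture (adjusted p = 0.117, 0.0612 and 0.0876 without replicates 1, 2 and 3) and without NT replicates 2 and 3 (0.134 and 0.175). Wnt5a, a ligand of the ROR branch, had 401, 511 and 369 in KE and 547, 453 and 649 in NT, with overlapping groups, a log2FC of -0.36 and an adjusted p of 0.0614 with limma. It passed the threshold without KE replicate 2 or without NT replicate 2 (adjusted p = 0.0185 and 0.0184). Wnt5b, its close relative, had a log2FC of -0.21 and overlapping groups.

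The other 13 ligands stayed below a mean of 10. Wnt1, Wnt3a, Wnt8a and Wnt16 were listed at 0 in all cultures, and Wnt2, Wnt2b, Wnt3, Wnt6, Wnt8b, Wnt9b, Wnt10a, Wnt10b and Wnt11 had means from 0.302 for Wnt8b to 4.37 for Wnt2b. Wnt11 had 3.16, 2.50 and 1.77 in KE and 0.868, 0 and 0 in NT. These levels correspond to a few reads per culture. Without the filter on low genes its adjusted p was 0.0297 in limma.

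**Figure D2:**
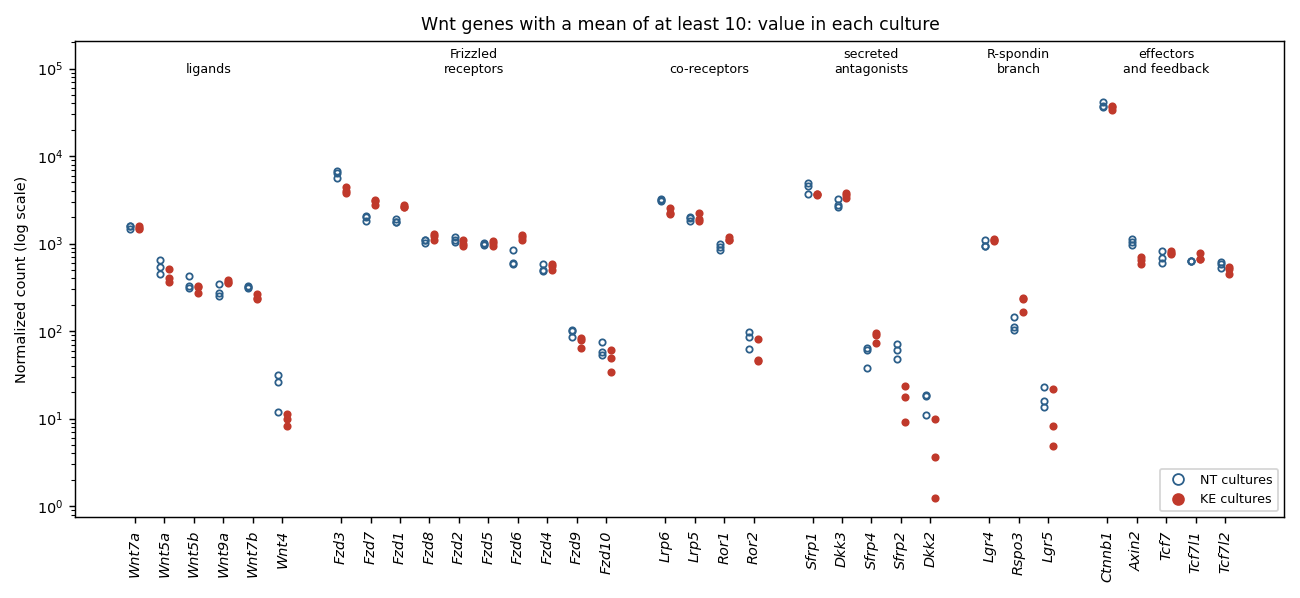
The plot gives the normalized count (log axis) of the 33 tested Wnt genes in each of the 6 cultures, ordered by level within each role, with NT as open blue circles and KE as filled red circles. The levels run from near 1 for Dkk2 in KE to 41249 for Ctnnb1, the gene of β-catenin, and comparison between genes is not corrected for length.

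All 10 Frizzled receptors were tested: Fzd1, Fzd6 and Fzd7 rose, Fzd3 fell, and the other 6 were not called. That is 40% called beside 51.3% of all genes. Frizzled proteins are membrane-spanning receptors that bind Wnt ligands through a cysteine-rich domain outside the cell. The values of the 4 that changed are given per culture, a choice made after they were seen. The exception was Fzd1, which was also named as the receptor with the highest level per kb of merged exons, at 534. With the length of the canonical transcript Fzd7 was the highest, at 835. Fzd1 (ENSMUSG00000044674; chr5:4803839-4808035, minus strand) had normalized counts of 2607, 2631 and 2772 in KE and 1781, 1909 and 1744 in NT. The KE cultures lay well apart from the NT cultures, and the spread within each group was small. The log2FC was 0.56 (standard error 0.06, adjusted p = 2.17e-05 with limma).

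Fzd7 (chr1:59521269-59534685, plus strand), which belongs to the same subfamily as Fzd1 and Fzd2, had 2785, 3071 and 3121 in KE and 1798, 1996 and 2059 in NT. Again no culture of one group reached the range of the other. The log2FC was 0.62 (standard error 0.07, adjusted p = 3.28e-05 with limma). Fzd2, the third gene of that subfamily, did not follow: it had 1002, 1114 and 940 in KE and 1051, 1109 and 1184 in NT, with interleaved cultures and a log2FC of -0.13 (95% confidence interval -0.31 to 0.05).

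Fzd6 (chr15:38869243-38901584, plus strand) and Fzd3 (chr14:65429573-65499933, minus strand) form another subfamily, known for planar cell polarity in hair and axon growth, and they moved in opposite directions. Fzd6 had 1265, 1099 and 1193 in KE and 581, 607 and 840 in NT. NT replicate 3 was the highest NT culture and still lay below every KE culture. The log2FC was 0.83 (standard error 0.13, adjusted p = 0.000256 with limma). Fzd3 had 3974, 3829 and 4391 in KE and 6409, 5665 and 6699 in NT. All KE cultures lay below all NT cultures. The log2FC was -0.62 (standard error 0.08, adjusted p = 4.68e-05 with limma).

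Fzd4, the receptor of norrin, Fzd5 and Fzd8 had log2FC values of 0.06, 0.03 and 0.15 with overlapping groups. Fzd8 passed the threshold only when KE replicate 1 was left out (adjusted p = 0.0483 with limma). Fzd9 and Fzd10 had the lowest levels of the family. Fzd9 had 64.2, 78.8 and 84.2 in KE and 86.1, 102 and 101 in NT, groups that did not overlap, with a log2FC of -0.35 and an adjusted p of 0.115 with limma. Fzd10 had a log2FC of -0.40 with overlapping groups.

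The make-up of the receptors differed between the groups on the scale of normalized counts per kb of merged exons. Fzd1 made up 26.8% ± 0.389 of the Frizzled total in KE and 20.6% ± 1.47 in NT (mean ± SD over 3 cultures). Fzd7 made up 21.4% ± 0.699 in KE and 15.8% ± 0.733 in NT, and Fzd6 7.28% ± 0.667 and 4.67% ± 0.808. Fzd3 was the receptor with the highest share in NT, at 22.5% ± 1.63, and the third in KE, at 12.9% ± 0.707. In NT, Fzd3 and Fzd1 overlapped in their culture shares, whereas in KE Fzd1 and Fzd7 had separate ranges and Fzd3 overlapped with Fzd2. Fzd2 made up 11.7% ± 1.16 in KE and 14.5% ± 0.387 in NT. The summed level of all 10 was 2299 to 2451 normalized counts per kb in KE and 2042 to 2185 in NT, whereas without division by length the sums of 14336 to 15429 in KE and 14008 to 15316 in NT overlapped. With the length of the canonical transcript in place of merged exons, an alternative added after the data were seen, Fzd7 had the highest share in both groups (33.8% in KE and 26.3% in NT), Fzd1 made up 21.3% and 17.3%, Fzd3 10.7% and 19.6%, and Fzd6 9.17% and 6.21%. The shares of Fzd1, Fzd6 and Fzd7 were higher in KE, and that of Fzd3 lower, with either length. A fixed length leaves the difference of a gene between the groups unchanged and moves only the summed total. These directions therefore restate the changes given above and are no separate test of them.

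**Figure D3:**
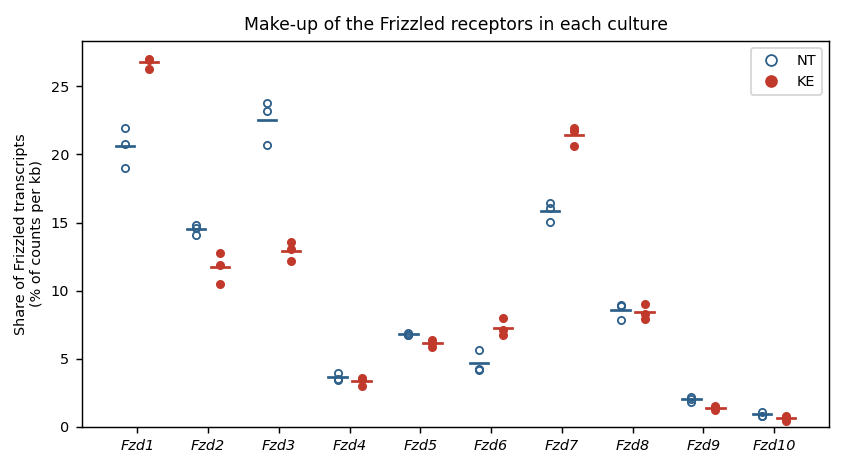
The plot gives the share of each Frizzled receptor in the summed normalized counts per kb of merged exons of all 10, in percent, for each culture (points) with the group mean (bars). Fzd1, Fzd6 and Fzd7 have KE points that all lie above their NT points, and Fzd3 drops from a mean of 22.5% in NT to 12.9% in KE.

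Of the 4 co-receptors, Ror1 rose, Lrp6 fell, and Lrp5 and Ror2 were not called. Their share called was 50%, beside 51.3% of all genes. Lrp6 (ENSMUSG00000030201; chr6:134423439-134544212, minus strand), a main co-receptor of the β-catenin branch, had normalized counts of 2253, 2180 and 2564 in KE and 3049, 3211 and 3175 in NT. The NT cultures were close to each other, and all KE cultures lay below them. The log2FC was -0.43 (standard error 0.07, adjusted p = 0.000349 with limma). Its paralog Lrp5 (chr19:3634821-3736643, minus strand) had 1814, 2210 and 1921 in KE and 1804, 1995 and 1985 in NT. The groups were interleaved, with a log2FC of 0.04 (95% confidence interval -0.14 to 0.21). Over the 6 cultures, the mean level per kb of merged exons was 199 for Lrp5, 177 for Lrp6 and 177 for Ror1, and with the length of the canonical transcript, an alternative added after the data were seen, it was 378, 282 and 177. The gaps between these 3 therefore depend on the length used. Ror2 was far lower with either length, at 15 and 17.4.

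Ror1 (chr4:99952988-100301990, plus strand), a receptor tyrosine kinase-like protein that binds Wnt5a, had 1106, 1104 and 1176 in KE and 912, 853 and 996 in NT. The groups did not overlap. The log2FC was 0.30 (standard error 0.08, adjusted p = 0.00759 with limma). Ror2, the related receptor, had 45.2, 46.3 and 80.3 in KE and 62.9, 97.2 and 85.7 in NT, with overlapping groups, a log2FC of -0.54 and an adjusted p of 0.104 with limma. KE replicate 3 lay among the NT cultures, and without it the adjusted p was 0.0228.

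Of the 9 secreted antagonists, 5 were tested and all 5 were called: Sfrp4 and Dkk3 rose, and Sfrp1, Sfrp2 and Dkk2 fell, beside 51.3% called over all genes. Dkk2 was tested only because of its NT values, so the share is not a result about the antagonists. Without KE replicate 3 or NT replicate 3, 1 rose and 1 fell, and without KE replicate 2 or NT replicate 2, 1 fell in place of 3. Without KE replicate 1, 1 rose and 2 fell. Over all 15280 genes, 6792 to 7212 were called with 1 culture left out, in place of 7844. SFRP proteins carry a Frizzled-like cysteine-rich domain and bind Wnt ligands, while DKK1, DKK2 and DKK4 bind LRP5 and LRP6; Dkk3 is a divergent member of its family. Sfrp2 (ENSMUSG00000027996; chr3:83673481-83681623, plus strand) had normalized counts of 23.5, 17.5 and 9.05 in KE and 71.3, 48.6 and 61.1 in NT. The highest KE culture was below the lowest NT culture by a wide margin. The log2FC was -1.87 (standard error 0.34, adjusted p = 0.000843 with limma).

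Dkk2 (chr3:131790336-131886065, plus strand) was the tested gene nearest the threshold, with a mean of 10.4. It had 9.95, 1.25 and 3.62 in KE and 10.9, 18.6 and 18.1 in NT. KE replicate 1 and NT replicate 1 lay less than 1 normalized count apart. The log2FC was -1.76 (standard error 0.58, adjusted p = 0.0253 with limma), and the adjusted p was 0.0725 and 0.0613 without KE replicates 2 and 3 and 0.0772 and 0.0709 without NT replicates 2 and 3. Other genes just inside the threshold were Lgr5 with a mean of 14.6 and Wnt4 with 16.4, and just outside it were Rspo1 with 4.80 and Wnt2b with 4.37.

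Sfrp1 (chr8:23901263-23939648, plus strand) had the highest level of the antagonists, with a mean of 836 per kb of merged exons, followed by Dkk3 with 472. It had 3638, 3714 and 3708 in KE and 3715, 4586 and 4865 in NT. The KE cultures were tightly spaced, and NT replicate 1 all but touched them. The log2FC was -0.24 (standard error 0.09, adjusted p = 0.0384 with limma). The adjusted p was 0.0987, 0.0747 and 0.0814 without KE replicates 1, 2 and 3, and 0.117 and 0.147 without NT replicates 2 and 3.

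Dkk3 (chr7:111712904-111758760, minus strand) had 3358, 3797 and 3600 in KE and 2604, 2743 and 3277 in NT. NT replicate 3 came close to the KE cultures without reaching them. The log2FC was 0.32 (standard error 0.09, adjusted p = 0.00845 with limma). Sfrp4 (chr13:19807274-19817164, plus strand) had 95.5, 73.4 and 89.6 in KE and 60.5, 64.5 and 38.1 in NT, with a log2FC of 0.68 (standard error 0.23, adjusted p = 0.0281 with limma). The groups did not overlap. Its adjusted p was 0.0983 and 0.0835 without KE replicates 1 and 3, and 0.0915 without NT replicate 3. Of 6 mural cell markers 4 were tested, Rgs5 rose and Acta2 fell, and Myh11, which passed the filter only through KE (means of 14.3 in KE and 6.39 in NT), was called higher, with a summed level of 3344 to 3723 in KE and 3555 to 4809 in NT. The part of fibroblast and mural cells in the antagonist values was not tested. The untested antagonists were Dkk4, listed at 0 in all cultures, and Dkk1, Sfrp5 and Wif1, a Wnt-binding inhibitor, with means of 0.159, 0.653 and 3.52. Frzb, which is also called Sfrp3 and was counted among the other pathway genes, had 23.0, 33.4 and 10.9 in KE and 25.8, 27.3 and 21.0 in NT, with overlapping groups.

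R-spondins are secreted proteins that bind LGR4 and LGR5 and keep Frizzled receptors on the cell surface by removing the ligases ZNRF3 and RNF43. Of the 5 genes of this branch, 3 were tested: Rspo3 rose, and Lgr4 and Lgr5 were not called. That is 33.3% called beside 51.3% of all genes. Rspo3 (ENSMUSG00000019880; chr10:29327285-29411876, minus strand) had normalized counts of 234, 166 and 236 in KE and 144, 112 and 102 in NT. KE replicate 2 was the lowest KE culture and lay above the highest NT culture. The log2FC was 0.82 (standard error 0.18, adjusted p = 0.00295 with limma).

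Lgr4 (chr2:109747839-109844609, plus strand), the receptor with the highest level in this branch, had 1100, 1073 and 1115 in KE and 933, 952 and 1114 in NT. NT replicate 3 lay among the KE cultures. The log2FC was 0.14 with an adjusted p of 0.177 with limma, or 0.0413 without NT replicate 3. Lgr5 was low and variable, with 4.83, 22.0 and 8.29 in KE and 22.9, 13.4 and 16.0 in NT, and a log2FC of -0.75. It passed the threshold only without KE replicate 2 (adjusted p = 0.0334 with limma). Rspo1 and Rspo2 were not tested. Rspo1 had 3.61, 2.50 and 1.81 in KE and 6.93, 7.24 and 6.68 in NT, and Rspo2 had 4.52, 2.50 and 1.81 in KE and 0.990, 0 and 0 in NT. The groups did not overlap for either gene, Rspo1 being lower and Rspo2 higher in KE at levels of a few reads. Without the filter on low genes, the adjusted p in limma was 0.0834 for Rspo1 and 0.0262 for Rspo2.

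Among the effectors and feedback genes, Axin2 fell, Ctnnb1, Tcf7, Tcf7l1 and Tcf7l2 were not called, and Lef1 was not tested. Of the 5 tested, 20% were called, beside 51.3% of all genes. Axin2 (ENSMUSG00000000142; chr11:108811169-108841609, plus strand), which encodes a scaffold of the β-catenin destruction complex, had normalized counts of 649, 706 and 589 in KE and 973, 1055 and 1121 in NT. The ranges of the groups were far apart relative to the spread within each. The KE mean was 648 ± 58.8 and the NT mean 1050 ± 74.0 (SD, n = 3 for each). The log2FC was -0.70 (standard error 0.09, adjusted p = 7.05e-05 with limma).

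Ctnnb1 (chr9:120757422-120789579, plus strand), the gene of β-catenin, had the highest level of all Wnt genes at a mean of 4531 per kb of merged exons. It had 36310, 33368 and 37782 in KE and 37106, 36211 and 41249 in NT. The cultures of the groups were interleaved, with a log2FC of -0.09 (95% confidence interval -0.25 to 0.07). mRNA does not show the amount of β-catenin protein, which the destruction complex sets.

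The 4 genes of the TCF/LEF family encode the DNA-binding partners of β-catenin. Tcf7, Tcf7l1 and Tcf7l2 had log2FC values of 0.18, 0.14 and -0.20. Tcf7l1, often a repressor, had 660, 787 and 661 in KE and 637, 635 and 640 in NT, groups that did not overlap but lay close, with an adjusted p of 0.221 with limma. Tcf7 passed the threshold only without NT replicate 3 (adjusted p = 0.0273). Lef1 (chr3:130903919-131018005, plus strand) had 3.68, 1.00 and 10.3 in KE and 1.59, 0 and 2.29 in NT, and was near the detection limit in every culture except KE replicate 3.

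**Figure D4:**
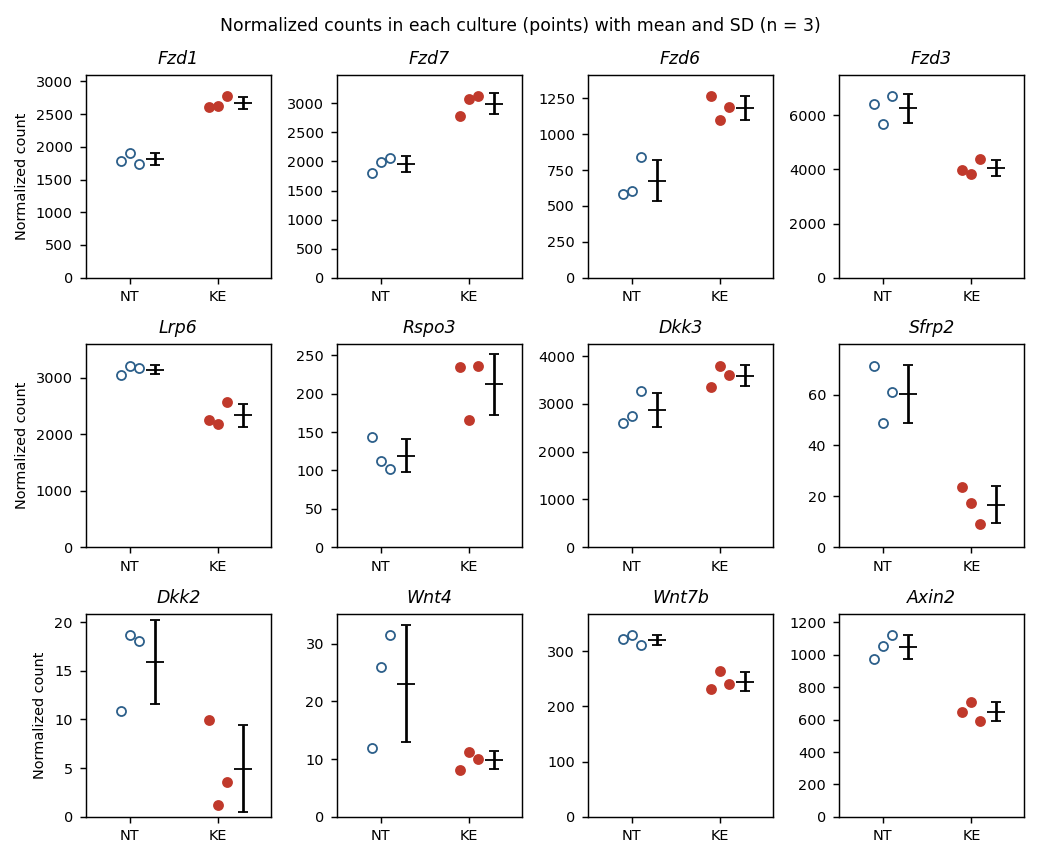
Each panel gives the normalized counts of 1 Wnt gene in the NT (open) and KE (filled) cultures, with the mean and SD (n = 3) beside the points; axes start at 0. Fzd1, Fzd7, Fzd6, Rspo3 and Dkk3 lie higher in KE, and Fzd3, Lrp6, Sfrp2, Wnt7b and Axin2 lie lower, whereas in Dkk2 and Wnt4 NT replicate 1 lies next to the KE cultures.

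A wider list of 72 Wnt pathway genes was counted in the same fit. Of these, 67 were tested, 11 rose, 18 fell and 38 were not called, that is 43.3% called beside 51.3% of all genes, with a median log2FC of -0.04. Among 7 genes of ligand processing and release, 3 rose and 1 fell, that is 57.1% called beside 51.3% of all genes. Trabd2b, a protease that cuts Wnt ligands, had 763, 828 and 910 in KE and 250, 319 and 336 in NT, and its log2FC of 1.47 was the largest rise of the list (standard error 0.12, adjusted p = 2.32e-06 with limma). Notum, which removes the lipid of Wnt ligands, rose with a log2FC of 0.74, and Wls, which carries ligands to the cell surface, with 0.40. Gpc3, a glypican that binds Wnt ligands, fell with a log2FC of -1.17, from 126 to 135 in NT to 49.5 to 62.6 in KE. Porcn, the enzyme that attaches the lipid, had a log2FC of 0.12 and was not called.

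Of 14 further extracellular genes, 11 were tested, 2 rose and 3 fell, that is 45.5% called beside 51.3% of all genes. Ndp, the gene of norrin, rose with a log2FC of 0.38, and Kremen1, a receptor of DKK proteins, with 0.33. Sostdc1, an inhibitor that binds LRP5 and LRP6, fell with a log2FC of -1.0, Apcdd1, a membrane inhibitor, with -0.61, and Tspan12, a partner of FZD4, with -0.27. The call of Apcdd1 was lost without NT replicate 2 (adjusted p = 0.0551 with limma). That of Tspan12 was lost without KE replicate 3 (0.096) and without NT replicates 1 and 2 (0.0573 and 0.0948). Znrf3, the ligase that removes Frizzled receptors and is itself a target of the β-catenin branch, fell with a log2FC of -0.49, from 734 to 787 in NT to 491 to 566 in KE, while its relative Rnf43 was too low to test.

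Inside the cell, Dvl1 rose with a log2FC of 0.34 while Dvl2 and Dvl3, the other Dishevelled genes, were not called. Of 11 genes of the destruction complex, Fbxw11 and Btrc, the ubiquitin ligase subunits that recognise β-catenin, rose with log2FC values of 0.31 and 0.30, and Apc, Amer1 and Tnks2 fell with -0.65, -0.48 and -0.20. That is 45.5% called beside 51.3% of all genes. The other 6, among them Axin1, Gsk3a and Gsk3b, were not called. Of these, Apc2 was called higher with the replicate number as a block and without NT replicate 2 (adjusted p = 0.0245 and 0.0354 with limma). It was also called with a mean of at least 50 and with quantile normalization (0.0491 and 0.0488). Tnks2 lost its call without KE replicate 1 or 2 (adjusted p = 0.055 and 0.0669 with limma) and without NT replicate 1 or 3 (0.0576 and 0.0823). Of 10 nuclear cofactors and inhibitors, the corepressor gene Tle1 rose with a log2FC of 0.56 and its paralog Tle4 fell with -0.22. In this list 20% were called, beside 51.3% of all genes. The call of Tle4 was lost without KE replicates 1 and 3 (0.133 and 0.0924) and without NT replicates 1 and 2 (0.152 and 0.0604).

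Of 9 further feedback and target genes, 8 were tested, 2 rose and 3 fell, that is 62.5% called beside 51.3% of all genes. Cd44, a hyaluronan receptor that is also a marker of reactive astrocytes, rose with a log2FC of 0.74, and Tnfrsf19 with 0.28. Id2, Myc and the cyclin gene Ccnd1 fell with log2FC values of -0.58, -0.32 and -0.21, and Ccnd1 lost its call without NT replicate 3 (adjusted p = 0.0824 with limma). Each of these is also known to respond to other pathways. Nkd1, a feedback inhibitor, had 64.4 to 71.7 in KE and 83.4 to 99.7 in NT, with a log2FC of -0.39 and an adjusted p of 0.071 with limma, or 0.0152 without a variance trend.

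Of 16 genes of the planar cell polarity and calcium branch, none rose and 6 fell, that is 37.5% called beside 51.3% of all genes. They were the calcium-dependent kinase gene Camk2a with a log2FC of -0.82, the polarity genes Prickle1 with -0.67, Celsr2 with -0.37, Celsr1 with -0.32 and Vangl2 with -0.27, and the small GTPase gene Rac1 with -0.18. Celsr1 lost its call without KE replicate 1 or NT replicate 1 (adjusted p = 0.0638 and 0.0569 with limma). Rac1 lost it without KE replicate 2 (0.102) and without NT replicates 2 and 3 (0.0915 and 0.0839). Without a variance trend in limma, 3 genes of this list fell in place of 6, since Celsr1, Celsr2 and Rac1 were no longer called. Over all genes, 7144 of 15280 were then called in place of 7844. The other 10, among them Ryk, Ptk7, Daam1, Mapk8 and Rhoa, were not called. Of 6 tested neuronal markers 1 rose (Tubb3, log2FC 0.43) and 1 fell (Map2, -0.51), with a median log2FC of 0.10 over the 6 and a summed level of 6060 to 6547 normalized counts in KE and 7711 to 8292 in NT. Map2 carried that sum, and without it the sum was 1154 to 1410 in KE and 906 to 1058 in NT, higher in KE. The part of other cell types in these values was not tested.

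**Figure D5:**
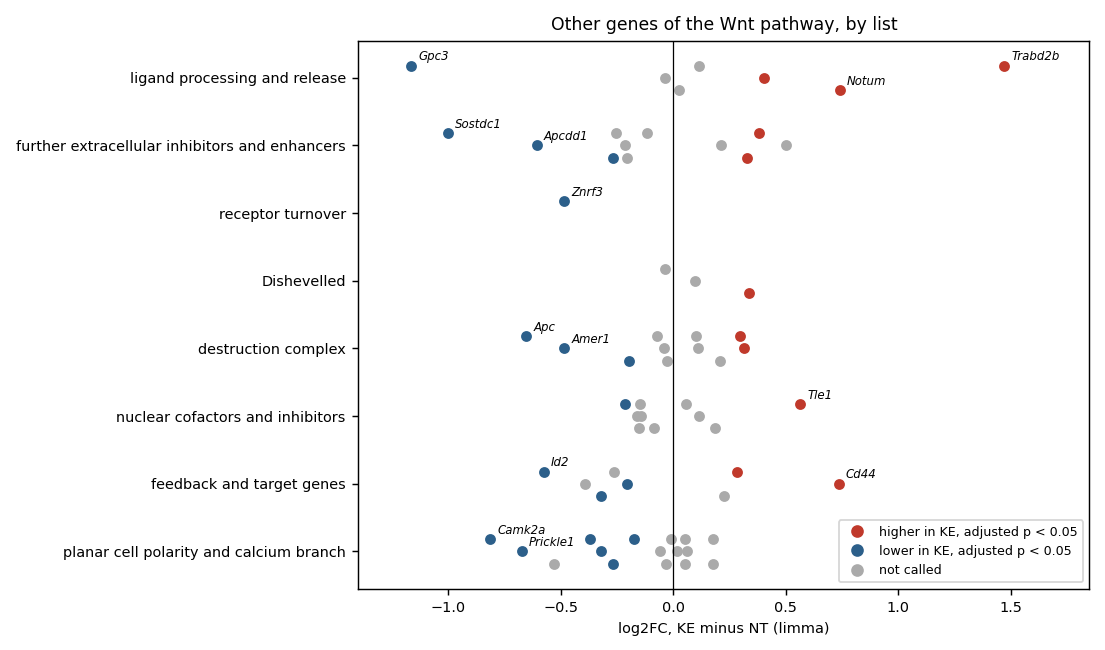
The plot gives the log2FC (KE minus NT) of the 67 tested genes of the wider Wnt pathway, each row a list and each point a gene; red points rose, blue points fell, grey points were not called, and called genes with an absolute log2FC of at least 0.45 are named. Rises reach 1.47 for Trabd2b and falls -1.17 for Gpc3, with 11 rises and 18 falls over all lists.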

How the data were processed

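RNA was sequenced from 3 KE and 3 NT astrocyte cultures with the TruSeq stranded mRNA kit. The authors deposited a normalized signal per gene and culture, that is gene counts estimated with Salmon and normalized with DESeq2. Whether a correction for transcript length was part of that step was not tested. The supplemental methods give TrimGalore for trimming and STAR, on GRCm39, for alignment; that paragraph names astrocytes only for a log2FC cutoff, and the submitters' processing notes list the build GRCh38, which does not match the mouse gene identifiers. Whether strand was used in counting is not given in the sources used here, and neither are the batches that the methods mention. Normalization with DESeq2 removes depth and presumes that most genes do not change. Within a tolerance of 0.1, no more than 77.6% of a culture's low values were multiples of the worth of 1 read, so reads were not recovered and no count test was run.

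For genes averaging at least 10, log2(value + 1) of the deposited signal was compared between KE and NT by limma (version 3.58.1, R 4.3.3) with the variance following a trend on expression. The tests are two-sided, and an adjusted p under 0.05 after Benjamini-Hochberg adjustment over 15280 genes was called. An exact permutation test of 3 against 3 cultures cannot go below 0.1 and was not used. The pseudocount of 1 understates the change of low genes. Gene positions, merged exon lengths and upstream windows came from Gencode vM39 on GRCm39, which matched 54749 of 55357 identifiers; levels per kb were compared as a description. Figures were drawn with matplotlib 3.10.9.

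The members and the gene lists were chosen with earlier results of these data known. Values in each culture were given for called genes with an absolute log2FC of at least 1, and for Axin2, Ctnnb1 and Lef1. They were also given for the tested gene of each role with the highest level per kb of merged exons. Those of further genes were added after their values were seen. At most 6 called genes were named from each list of other pathway genes. Alternatives were pseudocounts of 0.5 and 5, no filter or a mean of at least 50, quantile normalization, scaling to the 75th percentile, no variance trend, the replicate number as a block, and leaving out each culture in turn. The fit was tested on simulated data, in which far fewer genes changed than were called here. The main fit called 39% of simulated log2 changes of 0.5 and 76% of those of 1, and 3 of 15080 unchanged genes. A gene that was not called is therefore not shown to be unchanged. No culture was left out of the results.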

Additional observations from a re-analysis of the deposited data

How the results depend on the processing

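Of the 16 called Wnt genes, 11 kept their call under all alternatives run (Axin2, Fzd1, Fzd3, Fzd6, Fzd7, Lrp6, Ror1, Dkk3, Rspo3, Sfrp2 and Wnt7b), except that Sfrp2 could not be tested at a mean of at least 50. Wnt4, Sfrp1, Wnt9a, Dkk2 and Sfrp4 each lost it under 3 to 8 alternatives, and no direction reversed. The number that fell was 8, or 5 with a mean of at least 50, which left Sfrp2, Dkk2 and Wnt4 untested, and ranged from 5 to 8 when 1 culture was left out, being lowest without NT replicate 3. The number that rose was 8, and ranged from 6 to 9 when 1 culture was left out. Over all genes, 6792 to 7212 of 15280 were called with 1 culture left out, in place of 7844. The count over all genes was 7144 of 15280 without a variance trend, and 7251 of 12965 with a mean of at least 50. Same-numbered KE and NT cultures deviated together with r of 0.059, 0.066 and 0.065 across genes, and each culture correlated best with its own number, a hint from the data and not from the design. With the replicate block, 8046 of 15280 genes were called in place of 7844, and again 8 Wnt genes rose and 8 fell. Of the other pathway genes, 13 rose and 19 fell under it in place of 11 and 18. Apc2 and Bcl9l were then called higher and Tle3 lower (adjusted p = 0.0245, 0.0383 and 0.0334 with limma). The median log2FC of all genes was 0.002 in the main fit and lay between -0.002 and 0.029 over the alternatives. The adjusted p ranged over the alternatives from 0.00885 to 0.175 for Wnt4, 0.0012 to 0.147 for Sfrp1, 0.0048 to 0.127 for Wnt9a, 0.00584 to 0.0772 for Dkk2 and 0.0104 to 0.0983 for Sfrp4. Without a variance trend, Wnt4, Wnt9a and Sfrp1 were no longer called, nor were Tspan12, Tnks2, Tle4, Celsr1, Celsr2 and Rac1 among the other pathway genes, while Nkd1 was called lower, so that 13 of them fell in place of 18. Quantile normalization ended the calls of Wnt4, Apcdd1 and Tle4, and the fit without a filter those of Wnt4 and Tle4. With quantile normalization Reck and Apc2 were also called higher (adjusted p = 0.0336 and 0.0488 with limma), and 13 other pathway genes rose in place of 11.

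With 3 cultures per group, values near 10 rest on about 10 reads per culture. Gene-level values do not separate transcripts, and levels per kb depend on the length used. No control for the plasmid was among the samples.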
